A study of Homo sapiens with 60 samples.

Results

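The subject is the family of human genes named ZNF, most of which encode proteins with C2H2 zinc fingers, in spheroids of HCT116. Members are the genes whose symbol is ZNF followed by a number and at most 1 letter and whose mean count over all 60 libraries was at least 10. Of 29744 genes in the table, 529 had such a symbol and 232 of these reached the mean. The nearest members inside were ZNF57 at a mean of 10.06 counts, ZNF778 at 10.27 and ZNF133 at 10.32. The nearest outside were ZNF436 at 9.85, ZNF738 at 9.82 and ZNF440 at 9.62. The members were thus chosen by their mean count over all libraries, which is given only as a description. In Medium 1 alone 229 members reached a mean of 10, in Medium 2 alone 226, and in each of both media 223.

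HCT116 is an established human colorectal cancer line, grown here as spheroids in agarose micro-wells and sequenced from the 3′ ends of its transcripts with unique molecular identifiers. The 60 libraries form 12 groups of 5, in which 6 treatments were combined with 2 media, labelled Medium 1 and Medium 2. From day 1 to day 8 the spheroids had no addition (UT), butyrate at 1 µM (But), hemin at 0.1 µM (Hem), kynurenine at 1 µM (Kyn), kynurenic acid at 1 µM (KynA), or hemin with kynurenine (Hem+Kyn). All groups shared a high-glucose DMEM with serum, antibiotics and non-essential amino acids during growth. Part of the spheroids spent 3 h without full nutrients before sampling. Which of Medium 1 and Medium 2 this was is not given in the sources used, so both keep their labels. Every group is of the same line, so nothing here bears on other cells. The titles call the 5 libraries of a group biological replicates, without saying whether they were separate cultures or days, and the p-values measure the spread between these libraries.

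A C2H2 zinc finger is a short fold held by a zinc ion between a pair of cysteines and a pair of histidines, and fingers in a row read DNA bases one after another. A large share of the human genes of this kind also encode a KRAB box, which binds TRIM28 and through it the histone methyltransferase SETDB1, so that the sites they bind are packed into silent chromatin. Many KRAB zinc finger proteins bind transposable elements, and many of their genes lie in clusters on chromosome 19. Other ZNF proteins have no KRAB box and act in transcription, splicing, translation or ribosome assembly.

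Library totals ran from 1346147 to 3083249 counts, with medians of 1915340 in Medium 1 and 1858210 in Medium 2. Medium 1 occupied wells A1 to F4 of the plate and Medium 2 wells G4 to D8, so medium and plate position cannot be told apart. Each group of 5 libraries also filled consecutive wells, so treatment and plate position are tied as well. Among 10 epithelial markers, 8 had a mean count of at least 10, CDX1 was near 0 and VIL1 was at 0. Of 18 markers of fibroblasts, immune, endothelial and red blood cells, 17 had a mean count below 1 and COL1A1 had 13.1. The libraries of well B2 (butyrate, Medium 1) and well A7 (kynurenine, Medium 2) were judged apart from their groups after the data were seen. No measure of this is given here. Both were kept, with counts without them given where these differ. The sum of the fibroblast markers, nearly all COL1A1, ran from 5.57 to 14.5 CPM in Medium 1 and from 0 to 9.26 in Medium 2, and its part in the results was not tested.

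Annotation showed the family to be of mixed build. RefSeq lists 228 members as protein coding and 4 as pseudogenes, and 229 have a coding transcript in GENCODE 29. A finger pattern was found in 223 members, and a KRAB core, at least 7 of 10 residues of its conserved stretch, in 114. The core also had to hold the tryptophan at its fixed place. A diverged KRAB box can thus be missed, and members without a KRAB core may include KRAB genes. Among members scored low were ZNF45 and ZNF226, at 2, and ZNF473, at 5. KRAB members had a median of 12 fingers and the other 118 a median of 7, up to 34 in a single protein. Chromosome 19 held 81 members (34.9%), 58 of them with a KRAB core. The 6 coding members without the finger pattern, ZNF185, ZNF259, ZNF330, ZNF503, ZNF720 and ZNF839, belong to the family by name only as far as this pattern can tell.

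Most members were scarce. The median of their mean counts was 27.4 (21.7 for KRAB members and 39.9 for the others) against 57.9 over all 11298 tested genes. Levels are given below as CPM (counts brought to one common library size) after TMM, a correction for differences in library composition. Because only transcript ends are read, a count does not grow with length, and CPM can be compared between genes. The most abundant member was ZNF207, which binds spindle microtubules and the checkpoint protein BUB3, at 283 ± 53.6 CPM in Medium 1 and 365 ± 48.1 in Medium 2 (SD, n = 30 libraries each). The SCAN-domain repressor ZNF24 followed at 226 ± 15.9 and 266 ± 24.1 CPM. The remaining 8 of the 10 most abundant were ZNF428, ZNF451, ZNF281, ZNF770, ZNF146, ZNF664, ZNF706 and ZNF638, and none of the 10 had a KRAB core.

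The first question was whether the family as a whole shifted across the 12 groups. For each library the median over members of log2 CPM, relative to each gene's mean over the 60 libraries, was taken as the family level. It ran from -0.06 to 0.06 in the 30 Medium 1 libraries and from -0.01 to 0.16 in the 30 of Medium 2, with medians of -0.01 and 0.05, so the media overlapped. Within a treatment the media were apart under hemin and, narrowly, under kynurenine, and overlapped in the other 4. All tested genes had a median of 0.02 in both media. Summed CPM of the members was 5935 ± 159 in Medium 1 and 6381 ± 175.8 in Medium 2 (SD, n = 30). The members' plain share of all counts was 0.615 ± 0.02% and 0.612 ± 0.024%, a difference smaller than the spread between libraries, so the higher sum of Medium 2 depends on the scaling. With library totals in place of TMM the order of the media turned, with medians of 0.04 in Medium 1 and 0.00358 in Medium 2.

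In the mean of this level over the 30 libraries of each medium, KRAB members differed more (-0.03 and 0.09) than the others did (0.01 and 0.04). The KRAB median level in untreated spheroids was 0.00 ± 0.04 in Medium 1 and 0.11 ± 0.04 in Medium 2 (SD, n = 5), and no library of one group reached into the other. Under hemin the groups stood at -0.09 ± 0.04 and 0.11 ± 0.05, again without overlap. Under the other 4 treatments they overlapped, for example at -0.04 ± 0.05 and 0.05 ± 0.08 with kynurenine, though the Medium 2 mean was the higher in each. Members without a KRAB core overlapped between media under each of the 6 treatments. Their mean was higher in Medium 2 in 5 of them, and with hemin and kynurenine together their mean was 0.01 ± 0.03 in Medium 1 and -0.01 ± 0.05 in Medium 2. In summed CPM both classes were higher in Medium 2, KRAB members at 1743 ± 78.2 and 1927 ± 72.9 and the others at 4192 ± 97.1 and 4453 ± 136.5. These class levels and sums were made on the TMM scale only. With library totals the KRAB median log2 fold change over treatments was much smaller, as given in the closing section. No test was made of these levels, because the members were chosen with results of these data known.

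**Figure D1:**
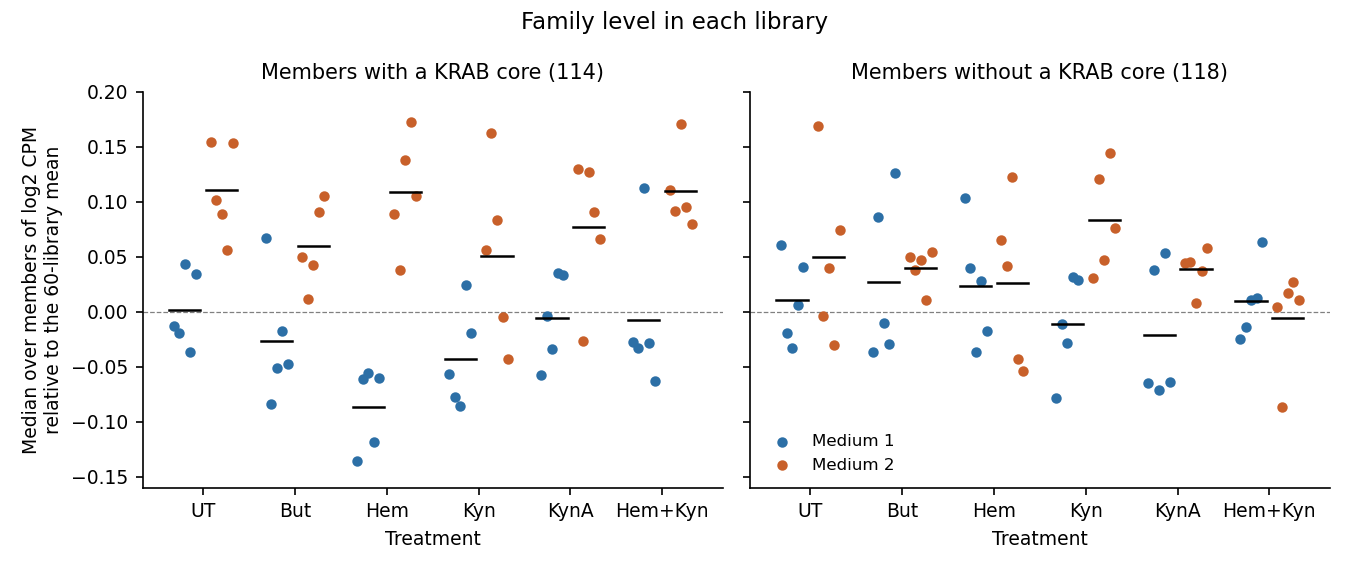
Median over members of log2 CPM relative to the 60-library mean (vertical axis), for each library of the 6 treatments (horizontal axis) in Medium 1 (blue) and Medium 2 (orange). Each point is 1 library and each bar a group mean. KRAB members (left) were higher in Medium 2 in each treatment's mean, with no overlap of libraries in 2 of 6 treatments. Members without a KRAB core (right) were higher in 5 of 6 means and overlapped in all 6.

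The comparison of Medium 2 with Medium 1, averaged over the 6 treatments, addressed which members differ between the media. In it 64 members rose and 37 fell in Medium 2, and 131 did not pass an adjusted p of 0.05. That is 27.6% of members higher and 15.9% lower, beside 22.7% higher and 23.3% lower among all 11298 tested genes. In either direction 43.5% of members passed, beside 46% of all genes, so members passed about as often as other genes and more of them upwards. Their median log2 fold change was 0.08, against -0.00453 for all genes. Without wells B2 and A7 the counts were again 64 and 37. Among the 223 members that reached a mean of 10 in each medium, 62 rose and 35 fell, beside 25% and 21.7% of the 9898 genes that did so. These calls, and each adjusted p below, are from the quasi-likelihood test of edgeR, adjusted over all tested genes after Benjamini and Hochberg. Scaling by library totals alone moved the median of all genes to -0.12 and that of members to -0.03, and turned the split to 58 lower and 39 higher, which is 25% and 16.8% of members beside 36.8% and 11.6% of all genes. Under that scaling, TMM and upper quartile scaling alike, the members' median lay 0.09 above that of all genes.

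Abundance matters for reading that split, since scarce genes fell more often. Among all tested genes with a mean of 10 to 20 counts, 452 fell and 121 rose of 1559, with a median log2 fold change of -0.14. The 79 members in that range had 10 falls and 15 rises, with a median of 0.09. Among members with 20 to 50 counts 16 fell and 24 rose of 91, beside 735 and 333 of 2568 genes. Among those with at least 50 counts 11 fell and 25 rose of 62, beside 1168 and 2041 of 6135 genes. The members thus leaned upwards beside genes of like abundance in the lower ranges, and resembled them in the highest range.

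By class, 34 of 114 KRAB members rose and 14 fell, with a median log2 fold change of 0.13. Of the 118 others 30 rose and 23 fell, with a median of 0.04. Among all tested genes 22.7% rose and 23.3% fell, and the others lay nearer to these shares than KRAB members did. KRAB members were also the scarcer class, with a median count of 21.7 against 39.9. Neither class was set against genes of like abundance. KRAB members had the higher median in all 6 treatments, from 0.09 against 0.05 without addition to 0.23 against 0.01 under hemin. Members with at least 10 fingers had 32 rises and 12 falls of 115, and those with 1 to 9 fingers 31 and 21 of 108. The 103 genes of other C2H2 names that were tested (ZBTB, KLF, ZSCAN and the like) had 33 rises and 23 falls, with a median of 0.10. A lean upwards was therefore not shown to be particular to the ZNF name.

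Transcripts of other kinds also moved with the medium. Of 83 cytosolic ribosomal protein genes 77 rose and none fell, and their summed level ran from 72640 to 105200 CPM in Medium 1 and from 94770 to 138900 in Medium 2. Of 8 tested long noncoding RNAs 7 fell (NEAT1, MALAT1, KCNQ1OT1, TUG1, GAS5, SNHG1 and SNHG12) and none rose. The sums of these 8 ran from 1334 to 3489 CPM in Medium 1 and from 894.6 to 2286 in Medium 2. Their part in the members' differences was not tested.

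**Figure D2:**
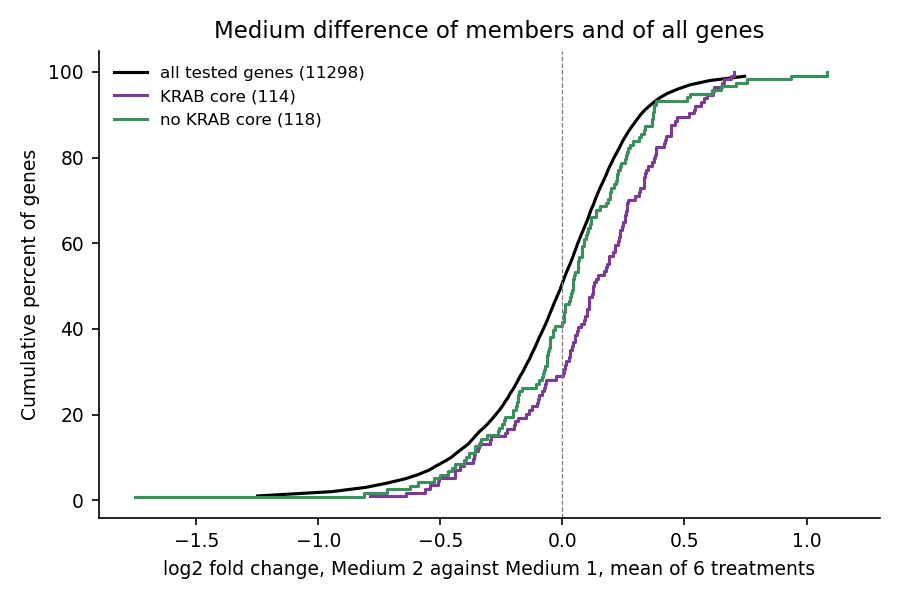
Cumulative percent of genes (vertical axis) against the log2 fold change of Medium 2 over Medium 1, mean of 6 treatments (horizontal axis), for all tested genes (black), KRAB members (purple) and other members (green). The KRAB curve lies to the right of the others through its middle, with a median of 0.13 against 0.04 for the other members.

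The members with the largest rises were a mixed group. ZNF165, a cancer-testis antigen with a SCAN domain, had 3.67, 8.07 and 14.8 CPM as lowest, median and highest of the 30 Medium 1 libraries, and 3.25, 17.2 and 25.8 in Medium 2. The ranges overlapped, with 9 Medium 2 libraries inside the range of Medium 1 and 1 below its median. It rose by 1.08 on the log2 scale (SE 0.12, adjusted p = 1.24e-11). ZNF322 had 11, 20.5 and 31.8 CPM in Medium 1 and 22.3, 39.8 and 55.5 in Medium 2. All Medium 2 libraries were above the median of Medium 1, and ZNF322 rose by 0.94 (SE 0.09, adjusted p = 5.54e-14).

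ZNF410 is an activator best known for a single strong target, CHD4, the motor of the NuRD complex. It had 27.5, 53.3 and 71.9 CPM as lowest, median and highest in Medium 1 and 32.5, 89.7 and 117 in Medium 2. With 4 Medium 2 libraries inside the range of Medium 1, it rose by 0.76 (SE 0.08, adjusted p = 6.94e-12). CHD4 itself stood at 387 ± 47.9 and 389.9 ± 58.7 CPM and did not pass (0.01, SE 0.05, adjusted p = 0.879).

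The KRAB repressor ZNF12 had the smallest p of all members. It had 45.6, 60.9 and 84.1 CPM as lowest, median and highest in Medium 1 and 72.4, 92.9 and 136 in Medium 2, with 6 Medium 2 libraries inside the range of Medium 1 and none below its median, and rose by 0.66 (SE 0.05, adjusted p = 5.65e-16). The other large rises were the KRAB genes ZNF100 (0.69) and ZNF184 (0.66), and ZNF367 (0.65) and ZNF200 (0.61), which have no KRAB core. ZNF451, a SUMO ligase and the fourth most abundant member, rose by less, 0.37 (SE 0.04, adjusted p = 5.7e-12), from 137 ± 13.9 to 177 ± 13.7 CPM.

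Among the falls, ZNF638, a large nuclear protein that recruits the HUSH silencing complex to unintegrated retroviral DNA, had 61.8, 132 and 185 CPM as lowest, median and highest in Medium 1 and 46.8, 85.8 and 142 in Medium 2. The ranges overlapped widely, with 28 Medium 2 libraries inside that of Medium 1, but only 1 above its median. It fell by 0.62 on the log2 scale (SE 0.07, adjusted p = 2.77e-10). ZNF598, the ubiquitin ligase that senses collided ribosomes, fell by 0.59 (SE 0.07, adjusted p = 2.07e-10), from 37.2 ± 6.34 to 24.6 ± 4.72 CPM. ZNF326, a part of the DBIRD complex that couples transcript elongation to splicing, fell by 0.45 (SE 0.08, adjusted p = 1.34e-06), from 66 ± 11.3 to 48.2 ± 11.9 CPM. These 3 have no KRAB core.

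The pseudogene ZNF204P fell by 0.81 (SE 0.11, adjusted p = 3.92e-09), from 10.8 ± 2.38 to 6.21 ± 1.98 CPM. ZNF276 fell by 0.52, the KRAB gene ZNF354A by 0.50, ZNF385B by 0.50 and ZNF512 by 0.47. ZNF692, known as the AICAR response element-binding protein, had the largest fall of all members (-1.75, SE 0.17, adjusted p = 3.2e-13), from 8.99 ± 3.52 to 2.80 ± 1.70 CPM, at a mean count of 12.08. ZNF204P overlaps the coding gene ZNF391, ZNF276 overlaps FANCA and ZNF410 overlaps FAM161B in RefSeq, and how reads of overlapping genes were shared out is not given in the sources used here.

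**Figure D3:**
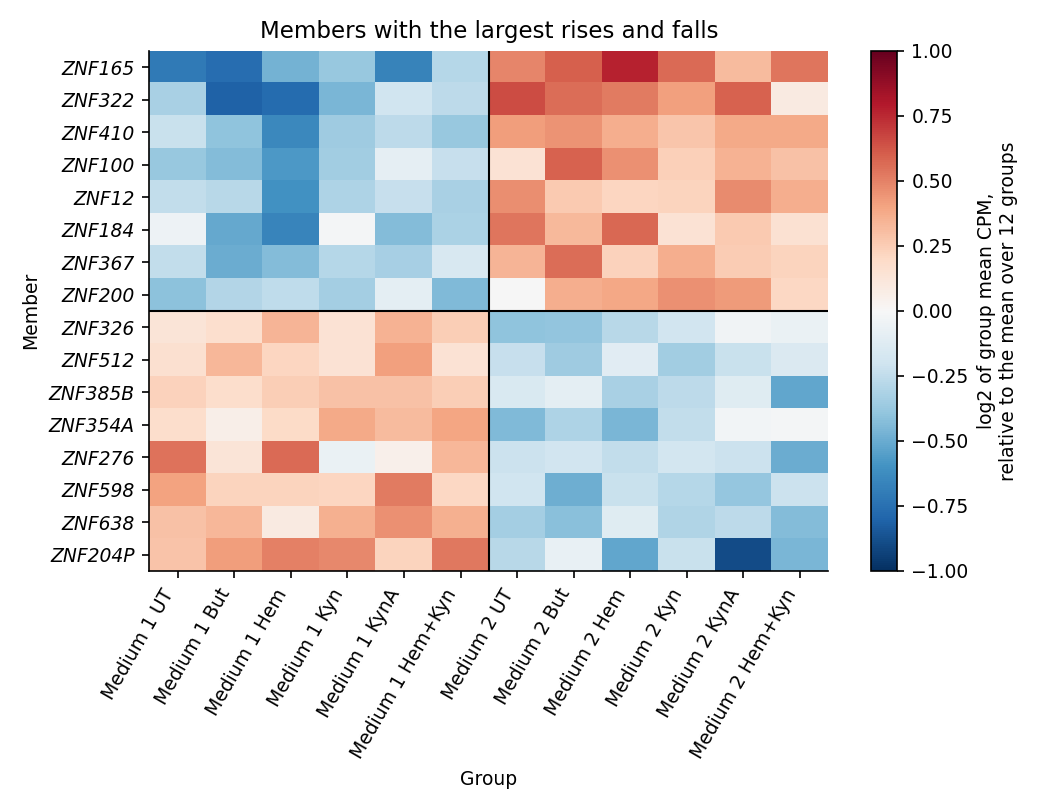
log2 of group mean CPM relative to the mean over 12 groups (colour) for the 8 largest rises and 8 largest falls (rows) among members that passed with at least 20 counts in the higher medium and 1 sign in all 6 treatments, in the 12 groups (columns). The 8 upper members are mostly blue in Medium 1 and red in Medium 2, from ZNF165 at 1.08 to ZNF200 at 0.61, and the 8 lower members show the reverse.

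A fixed set of members, with roles in and outside transcription, was followed whatever the result. ZNF593 and ZNF622, which take part in maturation of the large ribosomal subunit, did not pass, with log2 fold changes of 0.08 (adjusted p = 0.394) and 0.14 (adjusted p = 0.208). ZNF207 rose by 0.37 (SE 0.06, adjusted p = 1.56e-07). ZNF217, amplified in breast cancer, rose by 0.38 (SE 0.08, adjusted p = 0.000111). ZNF274, which brings SETDB1 to the 3′ ends of zinc finger genes, fell by 0.44 (SE 0.16, adjusted p = 0.0241), from 7.54 ± 2.90 to 5.62 ± 3.61 CPM, while ZNF91, a repressor of SVA retrotransposons, did not pass at 0.12 (adjusted p = 0.493). ZNF267 rose by 0.23 (adjusted p = 0.00174), and ZNF706 did not pass at -0.05 (adjusted p = 0.645).

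The upstream sequences of members that moved were read from RefSeq for GRCh38.p14, in which 198 members matched a promoter entry. The 120 bases just before the annotated start are shown for 4 members that rose (ZNF12, ZNF410, ZNF184 and ZNF322) and 2 that fell (ZNF638 and ZNF598). They were picked to show windows with and without CCGGAAG, the core bound by ETS factors, and no comparison of risers with fallers can be read from them. Capitals mark that core or its reverse complement.
ZNF12: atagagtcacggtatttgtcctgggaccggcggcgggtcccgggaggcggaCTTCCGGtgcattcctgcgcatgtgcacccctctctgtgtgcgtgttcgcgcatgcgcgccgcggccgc
ZNF410: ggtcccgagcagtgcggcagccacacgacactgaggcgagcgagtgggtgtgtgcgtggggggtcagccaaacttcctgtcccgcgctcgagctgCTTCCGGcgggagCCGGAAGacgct
ZNF184: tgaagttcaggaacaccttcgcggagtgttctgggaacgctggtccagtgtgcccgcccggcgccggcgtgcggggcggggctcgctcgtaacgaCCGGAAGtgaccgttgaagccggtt
ZNF322: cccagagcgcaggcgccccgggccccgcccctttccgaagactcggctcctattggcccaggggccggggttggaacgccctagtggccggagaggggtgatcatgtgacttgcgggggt
ZNF638: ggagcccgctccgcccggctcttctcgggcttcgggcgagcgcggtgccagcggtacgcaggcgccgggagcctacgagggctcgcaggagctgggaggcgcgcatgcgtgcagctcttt
ZNF598: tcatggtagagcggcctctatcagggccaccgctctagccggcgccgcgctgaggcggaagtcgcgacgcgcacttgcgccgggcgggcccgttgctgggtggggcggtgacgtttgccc
They lie, in that order, at chr7:6706948-6707067 (minus), chr14:73886739-73886858 (plus), chr6:27473106-27473225 (minus), chr6:26659747-26659866 (minus), chr2:71331662-71331781 (plus) and chr16:2009822-2009941 (minus). ZNF410 has 2 cores in this window, ZNF12 and ZNF184 have 1 each, and the others have none, though ZNF638 has 1 farther out within 250 bases. Of the others read, the riser ZNF100 has 1 core, and the riser ZNF451 and the faller ZNF326 have none within 250 bases.

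Within 250 bases before the start, the ETS core on either strand was in 33.3% of member promoters (66 of 198) and in 8.82% of all 27305 promoters in the table. The share was 39.7% of the 58 members that rose, 25.8% of the 31 that fell and 32.1% of the 109 that did not pass. KRAB members had it in 39.6% of 101 and the others in 26.8% of 97. The GC box GGGCGG was in 64.1% of member promoters and 42.3% of all, and the median number of CG pairs was 19 against 11. The E-box CACGTG was in 5.05% against 6.49%, and the composite TGATGNAAT read by ATF4 in 0.505% against 0.916%. A match is a description of letters, and no test was made of these shares. All promoters include those of genes that were not tested here. Shares among the tested genes alone were not computed, so the differences cannot be read as particular to the members.

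By location, members of chromosome 7 stood out upwards and were looked at after their values had been seen. None of its 18 members fell and 11 rose, with a median log2 fold change of 0.34. The 81 members of chromosome 19 had 9 falls and 16 rises, with a median of 0.10. Of all tested genes 23.3% fell and 22.7% rose. Genes of chromosome 7 outside the family were not counted, so a lean of the whole chromosome was not tested. The chromosome 7 risers included ZNF12, ZNF273 (0.70, adjusted p = 9.32e-05) and ZNF92 (0.58, adjusted p = 4.96e-08). On other chromosomes than 19, 23 of 56 KRAB members rose and 7 fell, with a median of 0.20. These include the KRAB members of chromosome 7, and no value without them was computed. On chromosome 6 the neighbours ZNF322, ZNF184 and ZNF165 rose while ZNF204P, which lies among them, fell. The KRAB neighbours ZNF587B and ZNF587, close copies on chromosome 19, had opposite signs, 0.54 (adjusted p = 1.28e-05) and -0.44 (adjusted p = 0.000674), and are uncertain because reads may be split between them.

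**Figure D4:**
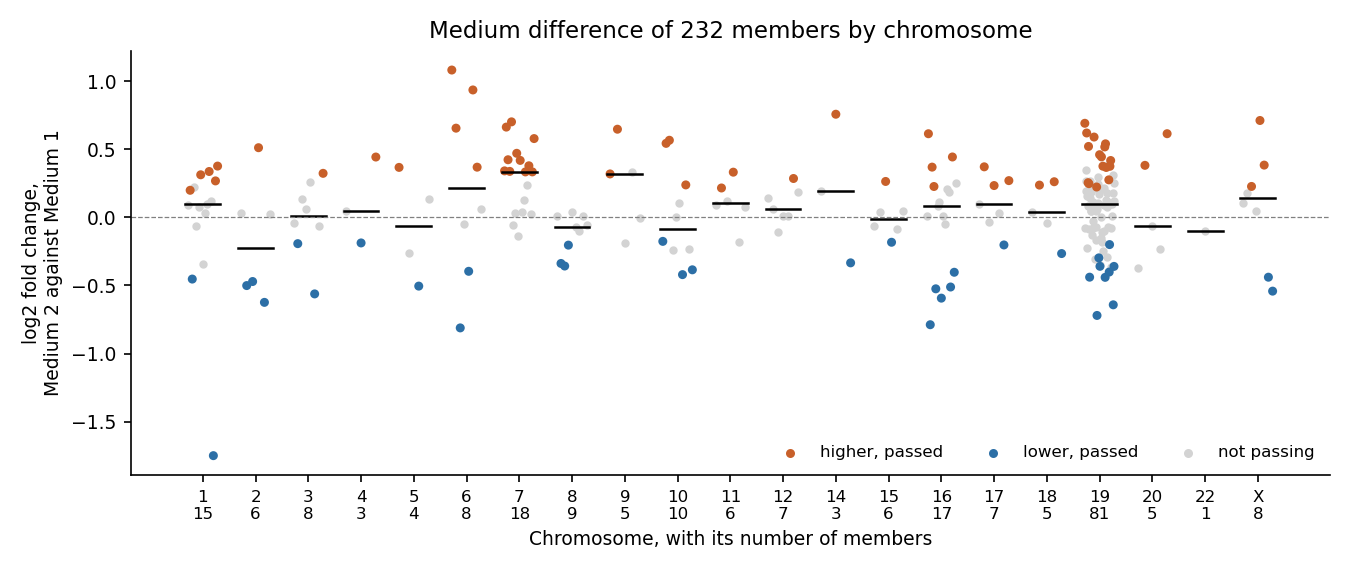
log2 fold change of Medium 2 over Medium 1, mean of 6 treatments (vertical axis), of each member, by chromosome with its number of members (horizontal axis). Orange and blue points passed upwards and downwards, grey points did not pass and bars are medians. Chromosome 7 has 11 orange and no blue points, and ZNF692 on chromosome 1 is the lowest point at -1.75.

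In a list of corepressor and chromatin genes, wider than the direct partners of KRAB proteins, more genes fell than rose. Of 37 tested genes of the corepressor and H3K9 methylation machinery 15 fell and 4 rose, with a median of -0.04. Among all tested genes 23.3% fell and 22.7% rose. The list also holds genes such as DNMT1, ATRX and EHMT1. TRIM28, which KRAB boxes bind, stood at 50.9 ± 8.47 and 49.5 ± 7.02 CPM (log2 fold change -0.04, adjusted p = 0.609), and SETDB1 at 0.16 (adjusted p = 0.0867), so neither passed. The falls included MORC2 (-0.62, adjusted p = 0.000297), and FAM208A (-0.59, adjusted p = 1.47e-07) and MPHOSPH8 (-0.43, adjusted p = 5.83e-09), which are subunits of the HUSH complex. MTA1 of the NuRD complex fell by 0.45 (adjusted p = 0.000204). CBX1 (-0.21, adjusted p = 0.000185) and TNRC18 (-0.53, adjusted p = 0.00818) also fell. The falls named are a part of the 15 and follow no single order of size or p. The rises were ATF7IP, the partner of SETDB1, at 0.40 (adjusted p = 5.56e-09), TRIM33 at 0.36, PPHLN1, the remaining HUSH subunit, at 0.23, and GATAD2B at 0.22.

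In untreated spheroids alone 8 members rose and 4 fell in Medium 2, beside 2.69% higher and 3.68% lower among all tested genes, 6.37% in either direction. Libraries of the 2 groups did not overlap for 16 members, or 6.9% of them, beside 8.45% of all genes. ZNF12 had 59.96, 52.01, 66.6, 56.9 and 84.1 CPM in Medium 1 and 103.5, 88.5, 99.0, 117 and 117 in Medium 2. Every Medium 2 library was above every Medium 1 library, and the log2 fold change was 0.71 (SE 0.13, adjusted p = 0.000139).

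ZNF503, a developmental corepressor, had 34.6, 44.8, 44.6, 40.6 and 41.03 CPM in Medium 1 and 70.8, 62.1, 61.6, 60.1 and 58.1 in Medium 2. The groups were apart, and ZNF503 rose by 0.61 (SE 0.12, adjusted p = 0.00066). This rise was not repeated under hemin, at 51.19 ± 2.28 CPM in Medium 1 and 50.35 ± 3.90 in Medium 2 (SD, n = 5). Nor was it under kynurenine, at 60.3 ± 4.61 and 61.0 ± 8.79 CPM. ZNF451 had 104.8, 132, 134.5, 137 and 132 CPM in Medium 1 and 183, 178, 158, 154.5 and 182.5 in Medium 2, also apart, and rose by 0.42 (SE 0.10, adjusted p = 0.00245).

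ZNF322 had 16.6, 22.2, 31.8, 23.6 and 19.5 CPM in Medium 1 and 31.6, 53.4, 55.5, 42.9 and 40.8 in Medium 2. The groups touched at 1 library each, and its log2 fold change was 0.99 (SE 0.21, adjusted p = 0.000981). ZNF165 had 6.83, 10.4, 7.95, 6.05 and 4.62 CPM against 15.01, 10.26, 11.6, 21.8 and 23.5. The groups overlapped at 1 library each, and it rose by 1.16 (SE 0.30, adjusted p = 0.00776). ZNF410 was even in Medium 1, at 58.99, 56.5, 62.4, 55.7 and 60 CPM, and higher throughout in Medium 2, at 86.8, 100.9, 78.1, 109 and 83.5, a rise of 0.64 (SE 0.20, adjusted p = 0.0348).

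Of the falls in untreated spheroids, ZNF638 had 123, 130, 120, 133 and 148 CPM in Medium 1 and 94.3, 70.2, 86.9, 89.2 and 82.3 in Medium 2. All Medium 2 libraries were lower, and the log2 fold change was -0.63 (SE 0.18, adjusted p = 0.0245). ZNF598 had 42.9, 33.02, 36.7, 44.8 and 41.5 CPM against 32.7, 24.8, 17.6, 23.1 and 32.8, with a narrow gap, and fell by 0.60 (SE 0.17, adjusted p = 0.0209). ZNF75D had 19.5, 13.6, 27.5, 14.5 and 20 CPM against 10.7, 8.10, 8.25, 9.25 and 11.1, also apart, and fell by 0.99 (SE 0.32, adjusted p = 0.0469).

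ZNF175, a KRAB gene known as a suppressor of HIV transcription, had 8.78, 6.33, 5.502, 8.47 and 8.21 CPM in Medium 1 and 9.11, 17.8, 11, 11.9 and 19.8 in Medium 2, and rose by 0.89 (SE 0.28, adjusted p = 0.0388). The 2 calls not covered by the naming rule, ZNF449 (1.03, adjusted p = 0.0479) and ZNF205 (-1.25, adjusted p = 0.0336), were added after their values were seen. ZNF165, ZNF322, ZNF12 and ZNF503 stayed called in all 21 alternatives run. ZNF451, ZNF449 and ZNF205 were not followed through them. ZNF75D lost its call in 11 of 21 (adjusted p from 0.0581 to 0.151), including without any one of wells A1, C1, E1, G4, H4, A5, B5 and C5. ZNF598, ZNF175 and ZNF410 lost theirs in 8 each (up to 0.113, 0.145 and 0.105) and ZNF638 in 3 (up to 0.0837).

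The medium difference was measured again in separate libraries under each exposure, on the same division of the plate between the media. Under butyrate 15 members rose and 9 fell, beside 4.5% and 5.34% of all genes (9.83% in either direction). Under hemin 29 rose and 14 fell, beside 12.5% and 11.3% (23.8%). Under kynurenine 14 rose and 2 fell, beside 3.75% and 4.28% (8.04%), and under kynurenic acid 8 and 6, beside 4.3% and 4.31% (8.61%). With hemin and kynurenine together 15 rose and 10 fell, beside 7.98% and 8.31% (16.3%). The median over members was above 0 in each, from 0.07 with the combination to 0.13 under hemin. These directions hold on the TMM scale: with library totals the medians were -0.000141 under butyrate, -0.04 under hemin, 0.03 under kynurenine, -0.04 under kynurenic acid and -0.06 with the combination. The medians of all genes were then -0.10, -0.17, -0.08, -0.12 and -0.12. The split was then 12 lower and 10 higher under butyrate, 31 and 16 under hemin, 6 and 9 under kynurenine, 13 and 2 under kynurenic acid, and 22 and 5 with the combination. All genes had 7.85% lower and 2.58% higher, 20.6% and 6.33%, 6.17% and 2.17%, 8.16% and 1.58%, and 13.5% and 3.69% in that order.

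Of the 12 untreated calls, 12 had the same sign under butyrate and 11 under each of the other 4 exposures, and from 6 to 9 passed again in the same direction. No library is shared between these comparisons. The pairwise correlation of the members' log2 fold changes between treatments ran from 0.394 to 0.597 over 232 members, and from 0.38 to 0.662 over all 11298 genes, which are not independent replicates. By sign alone, whether or not they passed, 50 members were positive in all 6 treatments (21.6%, beside 15% of all genes). Another 22 were negative in all 6 (9.48%, beside 16.4%). ZNF12, ZNF165, ZNF410 and ZNF451 passed in all 6 treatments and ZNF322 and ZNF638 in 5, while 161 members passed in none.

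ZNF12 shows how even the repeated calls were. Its Medium 2 group means ran from 88.3 ± 13.8 CPM under hemin to 106 ± 20.2 under kynurenic acid, and its Medium 1 means from 49.9 ± 3.09 under hemin to 64.8 ± 4.33 under kynurenic acid (SD, n = 5). ZNF322 varied more, with a log2 fold change of 1.35 under butyrate (adjusted p = 7.94e-06) and 0.36 with hemin and kynurenine (adjusted p = 0.241). ZNF638 missed the threshold with hemin as the only addition, at -0.21 (adjusted p = 0.434).

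**Figure D5:**
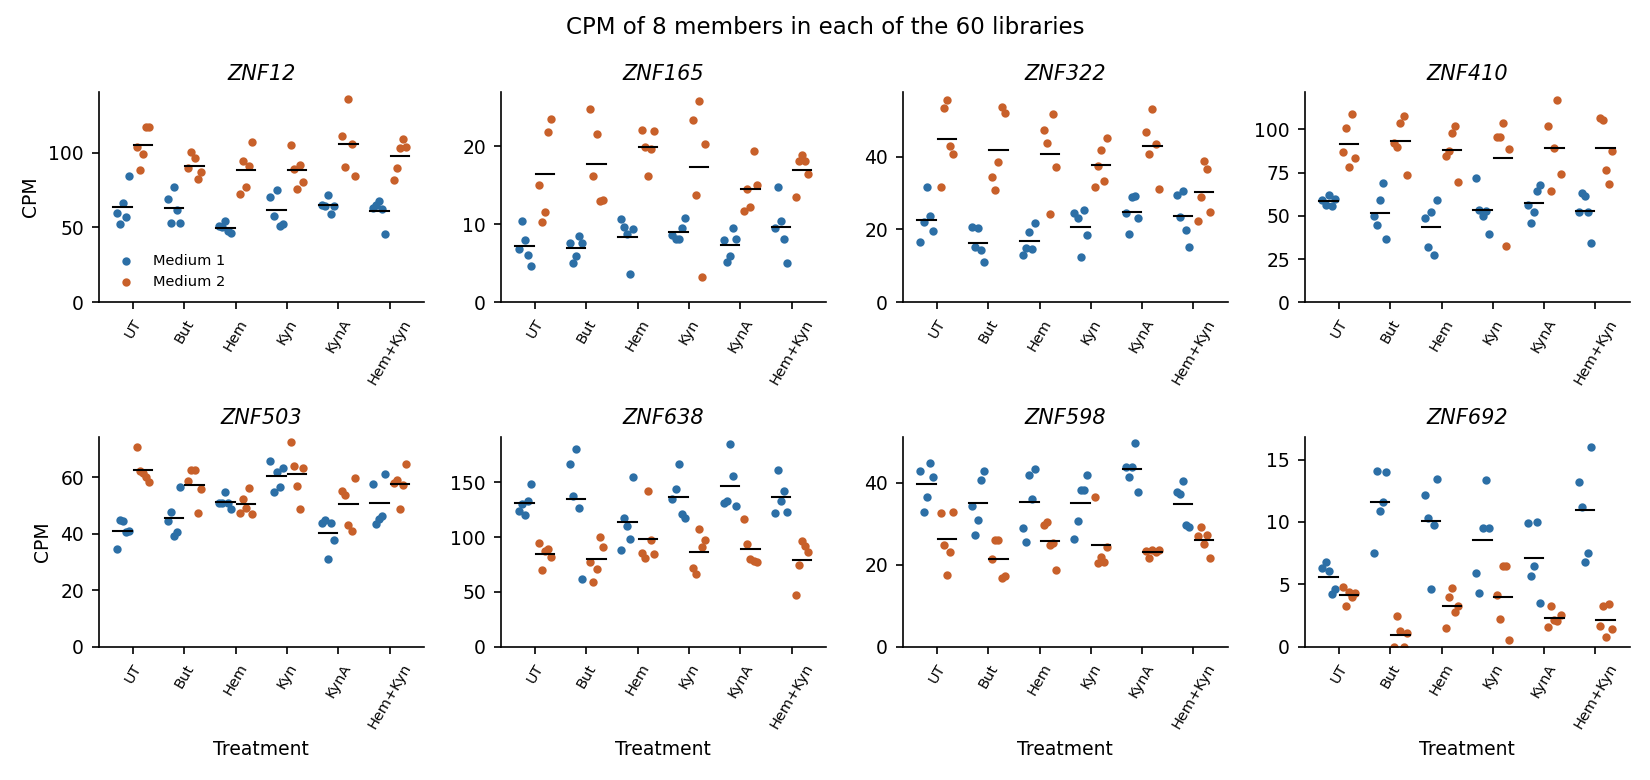
CPM (vertical axes, from 0) of 8 members in each library of the 6 treatments (horizontal axes) in Medium 1 (blue) and Medium 2 (orange), with bars at group means. ZNF12, ZNF165, ZNF322 and ZNF410 are higher and ZNF638 and ZNF598 lower in Medium 2 in each group mean. ZNF692 has its lowest group under butyrate in Medium 2, at 0.97 CPM.

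The next question was whether any exposure changed members within a medium. In all 10 comparisons with untreated spheroids, which share the untreated libraries of each medium, no member passed edgeR's quasi-likelihood test. In Medium 1 the share of all genes that passed was 0.00885% for butyrate, 0.0266% for hemin, 0.0354% for kynurenine, 0% for kynurenic acid and 0.0266% for the combination. In Medium 2 it was 0%, 0%, 0.0266%, 0.0177% and 0.558% in the same order, the last made of 0.248% lower and 0.31% higher. At an unadjusted p under 0.05 there were 15, 44, 13, 9 and 14 members in Medium 1 and 10, 12, 23, 17 and 22 in Medium 2. Of all genes 8.45%, 21.4%, 3.77%, 3.2% and 4.9% did so in Medium 1 and 3.52%, 7.52%, 6.95%, 7.88% and 13.6% in Medium 2. DESeq2 called 9 members for hemin and 1 for kynurenine in Medium 1 and none in the other 8 comparisons.

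Hemin in Medium 1 came closest. The KRAB gene ZNF845 had 7.80, 6.33, 6.72, 9.69 and 10.3 CPM in untreated spheroids and 3.81, 1.42, 3.23, 4.28 and 2.07 with hemin. The groups were apart, with a log2 fold change of -1.47 (SE 0.36, 95% interval -2.18 to -0.76), but the adjusted p was 0.0609. In Medium 2 it had 6.43, 6.48, 5.498, 8.59 and 3.71 CPM untreated and 12.9, 11.9, 8.72, 7.30 and 2.43 with hemin. The difference of these responses between media was 1.97 (SE 0.49, adjusted p = 0.157).

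ZNF428 stood at 127 ± 17.4 CPM untreated and 219.5 ± 65.7 with hemin in Medium 1 (log2 fold change 0.79, adjusted p = 0.0609). DESeq2's Wald test called 9 members in this comparison, 6 lower and 3 higher, beside 2.67% of all genes. Leaving out well B2, a butyrate library, gave 8 calls beside 3.92%, leaving out well A7 gave 8 beside 2.79%, and leaving out both gave 13 beside 6.67%. A fit to only the 2 groups gave 7 beside 2.16%. Without well B1 (untreated) there were 3 calls beside 1.39%, and without well G2 (hemin) 18 beside 10.4%. ZNF845, ZNF428 and ZNF865 were called by DESeq2, without B2, without A7, without both and with only the 2 groups. ZNF865 was named after its values were seen, and ZNF428 overlaps SRRM5. The median over KRAB members was -0.10, with 69 of 114 negative, and over the others 0.06.

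ZNF503 had 65.5, 54.7, 61.7, 56.4 and 63.3 CPM with kynurenine in Medium 1, all above the untreated libraries given earlier and close to the untreated level of Medium 2. Its log2 fold change was 0.55 (SE 0.12, 95% interval 0.30 to 0.80, adjusted p = 0.0748). It was the member that DESeq2 called there, and edgeR called it without well B2 or without both B2 and A7, where 0.0531% of all genes were called by DESeq2 and 0.0615% in either edgeR fit. It overlaps other annotated transcripts. Kynurenic acid at the same dose left it at 40.3 ± 5.86 CPM beside 41.1 ± 4.13 untreated.

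In the other comparisons the members with the smallest p did not pass. With butyrate in Medium 1 ZNF407 stood at 10.4 ± 3.73 CPM beside 17.9 ± 1.47 (log2 fold change -0.79, adjusted p = 0.476). With kynurenic acid in Medium 1 ZNF75D had 8.96, 6.21, 10.7, 10.0 and 8.11 CPM, below all untreated libraries (-1.10, SE 0.32, adjusted p = 0.999). With the combination in Medium 1 ZNF385A had -1.06 (adjusted p = 0.905). In Medium 2 the smallest p belonged to ZNF692 with butyrate (-1.96, adjusted p = 1), ZNF124 with hemin (0.96, adjusted p = 0.533), ZNF195 with kynurenine (-0.69, adjusted p = 0.289), ZNF621 with kynurenic acid (0.97, adjusted p = 0.278) and ZNF205 with the combination (1.23, adjusted p = 0.11).

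Last, each exposure was tested for a change in the medium difference itself. No member passed in any of the 5 interaction contrasts, where 0%, 0%, 0.0177%, 0% and 0.0266% of all genes passed for butyrate, hemin, kynurenine, kynurenic acid and the combination. There were 6, 24, 9, 9 and 14 members at an unadjusted p under 0.05, beside 4.27%, 13.3%, 3.69%, 4.61% and 8.57% of all genes, and DESeq2 called no member. ZNF692 had the smallest p with butyrate. It had 6.34, 6.78, 6.11, 4.24 and 4.62 CPM untreated in Medium 1 and 4.82, 3.24, 4.40, 3.96 and 4.33 untreated in Medium 2. With butyrate it had 7.54, 14.1, 10.9, 11.6 and 14.02 in Medium 1 and 0, 2.46, 1.305, 0 and 1.09 in Medium 2, so the media moved apart. The interaction was -2.99 (SE 0.64, 95% interval -4.27 to -1.70, adjusted p = 0.201), and without well E5 it passed at 0.0373. ZNF692 with the combination (-1.89, adjusted p = 0.284), ZNF503 with kynurenine (-0.59, adjusted p = 0.685) and ZNF621 with kynurenic acid (1.02, adjusted p = 0.998) also did not pass. Under hemin, leaving out well G2 let 1 member, ZNF526, pass (-1.64, adjusted p = 0.0437).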

How the data were processed

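Gene counts of 60 libraries were used. The authors deposited estimated counts per gene. The submitters' processing notes name the build GRCh38 and the tools Salmon 1.5.2, STAR, UMI-tools 1.1.2, cutadapt 3.4 and, for quality, FastQC 0.11.9. Their annotation and their treatment of strand and of shared reads are not given in the sources used. Of these expected counts 10.09% were not whole, and all were rounded. Columns name group and well, and groups follow the titles.

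Genes were filtered with filterByExpr (minimum count 10, minimum total 15), scaled by TMM and fitted with edgeR 4.0.16 in R 4.3.3, with 1 mean for each of 12 groups (48 residual degrees of freedom, common dispersion 0.0316). Of 22 contrasts, p-values were adjusted over 11298 genes at 0.05. All 232 members were tested. DESeq2 1.42.0 was an alternative, beside other scalings, no filter, thinned depth, plate row and only the groups compared. Each library of the groups compared was also left out in turn.

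KRAB cores and fingers were read from GENCODE 29 coding sequences, not from the RefSeq proteins planned. Promoters came from RefSeq GRCh38.p14. The members, lists and tests were chosen with earlier results of these data known. Named members were the 10 most abundant, the 8 largest rises and falls over treatments (at least 20 counts in the higher medium, 1 sign in all 6 treatments), the 6 largest of each in untreated spheroids (at least 20 counts), the smallest p elsewhere, the 3 at either side of the threshold, and a fixed set of symbols, of which 11 are members.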

Additional observations from a re-analysis of the deposited data

Results flagged for a closer look

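In 54 groups of 5 libraries, the family level and summed CPM in all 12 groups and 30 sets of printed CPM values, the end library was set against the others, and chance alone marks about 1 in 20. In 2 groups the end library stood apart. The median family level of the hemin and kynurenine group in Medium 1 was 0.056 in well D4, with 0.754 of the group's range between it and the next library. ZNF451 in untreated Medium 1 spheroids was 105 CPM in well A1, with 0.822 of the range between it and the next.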

How the results depend on the processing

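No paired analysis was possible because the columns of the table carry wells and no replicate numbers. All 16 members named for the mean over treatments kept their call in all 70 alternatives, and none of the 31 named members that passed there changed sign. Of the 14 that did not pass, ZNF428, ZNF770, ZNF664, ZNF124 and ZNF593 fell below 0 with library totals, ZNF664 also in other settings. For the mean over treatments, library totals gave 58 lower and 39 higher (36.8% and 11.6% of all genes), with medians of -0.0331 for members and 0.0149 for KRAB members, and upper quartile scaling gave medians of 0.0435 and 0.0904. Members with at least 30 counts gave 18 lower and 39 higher of 109 (20.8% and 29.8% of such genes). With library totals the lower and higher counts were 7 and 5 untreated (6.36% and 1.45% of all genes, with the other shares given in the report), 31 and 16 under hemin, 6 and 9 under kynurenine, 13 and 2 under kynurenic acid, and 22 and 5 with the combination. Without a count filter 1 was lower untreated, 5 lower under butyrate and 4 higher under kynurenic acid. With only the groups compared 7 were lower untreated, 4 lower and 8 higher under butyrate, and 1 lower and 4 higher under kynurenine. Plate row as a factor gave 9 lower under hemin, 9 higher under kynurenine and 9 higher with the combination, and thinned depth gave 6 lower with the combination. For hemin in Medium 1 there were 13 calls without wells B2 and A7, 8 without B2, 8 without A7, 7 with only the groups compared and 9 by DESeq2, and for kynurenine in Medium 1 there was 1 without B2 and A7, 1 without B2 and 1 by DESeq2. The 3 fits without B2 or A7 were chosen after seeing the data. The cause of these shifts was not tested.

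Leaving out 1 library at a time gave 34 to 40 lower and 63 to 70 higher for the mean over treatments, with medians of 0.064 to 0.0929 for members and 0.119 to 0.151 for KRAB members. It gave 1 to 4 lower (1 without A1, E1, A5, B5 or C5, 2 without G4 or H4) and 5 to 8 higher (5 without B1, E1 or H4) untreated. Under butyrate it gave 5 (without G1) to 10 lower and 10 to 14 higher, and under hemin 10 to 17 lower and 20 to 31 higher. Under kynurenine it gave 0 (without B3 or G6; 1 without D3) to 4 (without F6) lower and 8 (without G6) to 16 higher, and under kynurenic acid 4 to 7 lower and 3 (without G7; 5 without E3, G3 or F7) to 11 higher. With the combination it gave 6 (without H7 or A8) to 11 lower and 8 (without H7; 9 without B4 or A8) to 15 higher. For hemin in Medium 1 it gave 0 to 18 calls (3 without B1, 18 without G2), and for the medium difference under butyrate and under hemin against untreated 0 to 1 (1 without E5 and 1 without G2). In the other exposure and interaction comparisons it gave 0 calls. For each comparison only libraries of its own groups were left out in turn. For hemin and kynurenine in Medium 1, wells B2 and A7 are thus not among them. The calls without those wells are given above. The median member had 27.4 counts a library, which limits the precision of its value.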
